A study of Mus musculus with 2 samples.

Results

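Among liver genes with low read numbers, 52 differed at least 2-fold between a pool treated with acetoaceto-o-toluidide (AAOT) and an untreated pool, 30 of them higher and 22 lower in the AAOT pool. They were chosen from the deposited table of normalised read counts (CPM, counts scaled to library size) by 2 conditions. The mean of both pools had to be at least 1 m and under 10 m, where m, set from the mean column total, was 1.00008 CPM. In addition, log2((AAOT + m)/(control + m)) had to be at least 1 or at most -1. Of 15526 genes listed, 4304 lay in this level band. The share counted as higher was 0.697% of the band and the share counted as lower was 0.511%, together 1.21%. Among the 7761 genes above the band the shares by the same ratio were 0.773% higher and 0.425% lower. These same values chose the genes, so their ratios are given as a description of 2 libraries and were not tested.

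The AAOT pool was liver RNA mixed from 3 female NOG-TKm30 mice given 0.3% AAOT for 4 weeks, and the control pool was the same from 3 mice given 0%. The mice were 22 weeks old. NOG mice are severely immunodeficient, and in the TKm30 line they carry a clone of altered HSVtk, a herpesvirus thymidine kinase, behind a mouse transthyretin enhancer/promoter, which is active in hepatocytes. All mice of both pools had this transgene. The labels name C57BL as strain background as well as NOG, and the route of AAOT is not stated in them. Each group is 1 library, so no spread between mice can be estimated. Reads assigned to genes numbered 16528533 in the AAOT library and 18801241 in the control library, and 1 read was worth 0.0598 CPM in the AAOT pool and 0.0539 CPM in the control pool.

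AAOT is made from o-toluidine, an aromatic amine, by forming an amide. The liver clears such compounds with enzymes that oxidise them, chiefly cytochromes P450, and enzymes that attach glutathione, sulfate or glucuronate. Many of these enzymes come in families of tandem copies in the mouse, and their genes can be induced by xenobiotic receptors. Liver genes with few reads include weakly expressed members of such families, regulators whose messages are short-lived, and genes of minor cell types.

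The 52 genes had read numbers from 0 to 237 in the AAOT pool and from 0 to 285 in the control pool. The median over the 30 higher genes was 133 reads in the AAOT pool and 40.5 reads in the control pool. For the 22 lower genes the median was 21.5 reads in the AAOT pool and 91 reads in the control pool. Folds are given below with an exact 95% counting interval. For the 52 genes it comes from the read numbers that chose them, so its lying off 1 for each of them adds nothing. Across the band it lay above equality for 9.55% of the 4304 genes and below it for 8.11%. The interval covers counting error only and leaves out mice, pools and library preparation. It also leaves out how reads were divided among genes of similar sequence. The added m sets a demand that depends on level. At a mean of 1 CPM a gene entered only with a plain fold of 5, and at a mean of 10 CPM with a plain fold of 2.16. Between 1 and 2 m there were 3 higher and 7 lower genes among 1012, from 2 to 5 m there were 12 higher and 9 lower genes among 1645, and from 5 to 10 m there were 15 higher and 6 lower genes among 1647. The median log2 ratio of the band was 0.00249, with an SD across genes of 0.332. A plain fold of 3 or more was reached by 16 higher and 16 lower genes.

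**Figure D1:**
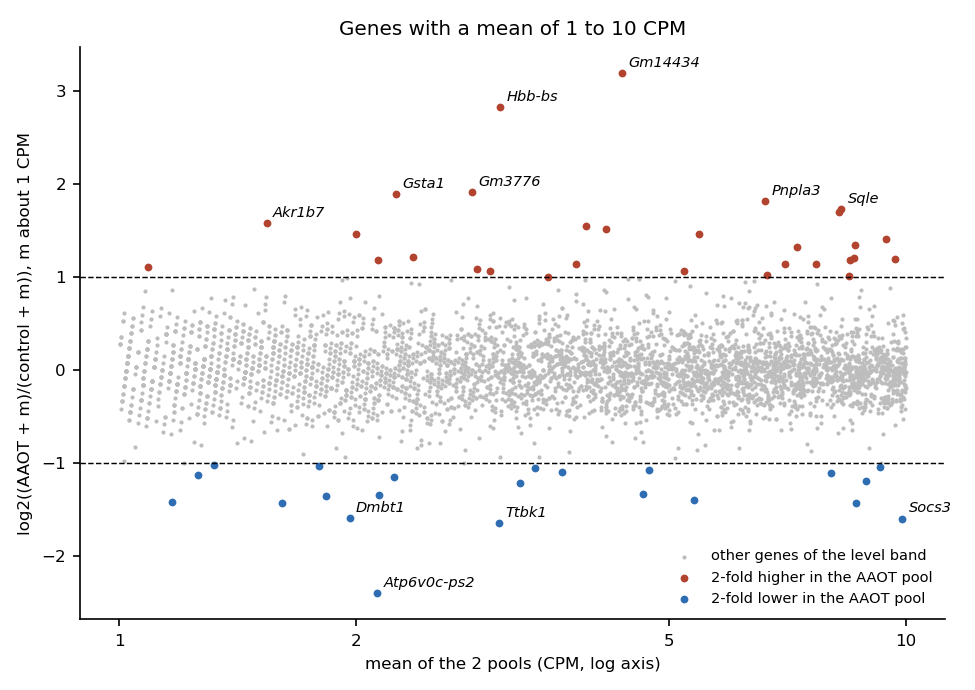
Each point is a gene with a mean of 1 to 10 CPM, plotted by its mean over both pools (x, CPM, log axis) against its log2 ratio, AAOT over control with m added (y). The 30 genes above the upper dashed line (2-fold) and the 22 below the lower one are the ends of a continuous spread of ratios centred near 0, with Gm14434 and Hbb-bs at the top and Atp6v0c-ps2 at the bottom.

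Among enzymes of glutathione, sulfate and glucuronate conjugation, every gene past 2-fold was higher in the AAOT pool. Of 2 listed glutathione transferase genes in the band both were past 2-fold, and of 13 genes of other conjugation and hydrolysis enzymes 4 were higher and 0 lower. The median log2 ratios of these lists were 1.62 and 0.28. Gsta1, an alpha-class glutathione transferase, had 69 reads (4.12 CPM) in the AAOT pool and 7 reads (0.377 CPM) in the control pool, a 10.9-fold higher level (95% counting interval 5.03 to 28.2). Its neighbour on chromosome 9, the gene model Gm3776, had 84 reads in the AAOT pool and 11 reads in the control pool, 8.47-fold higher (4.50 to 17.6). Both genes had few reads in the control pool, where a handful of reads more or less would change the fold.

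Gsta1 (chromosome 9, 78230669 to 78242683, GRCm38) and Gm3776 (78257129 to 78269166) lie next to each other with no listed gene between them. Their longest open reading frames have the same length and differ at few positions, with 99.7% identity over 672 bases, while Gsta2 of the same cluster is 97.9% identical to Gsta1 and 97.6% to Gm3776. The block of 60 bases with most differences among these 3 genes, bases 481 to 540 of the reading frame of GENCODE M21 transcripts, shows how little separates them. Capitals mark the 3 positions at which the genes differ.
Gsta1: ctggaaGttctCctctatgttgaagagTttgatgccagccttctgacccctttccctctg
Gm3776: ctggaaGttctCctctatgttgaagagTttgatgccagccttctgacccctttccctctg
Gsta2: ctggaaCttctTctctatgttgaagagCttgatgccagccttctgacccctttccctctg
In this block Gsta1 and Gm3776 are equal and only Gsta2 stands apart. Only 10.3% of the 50-base stretches of Gsta1 and 7.52% of those of Gm3776 occur in no other gene, so reads could be counted for one or the other. Summed over Gsta1, Gm3776, Gsta2 and the gene model Gm10639, which share these stretches, there were 732 reads in the AAOT pool and 223 reads in the control pool, 3.64-fold higher (3.13 to 4.25). The sum of these 4 genes does not depend on how reads were split among them. Gsta4, the listed neighbour of Gsta1 on the other side, is not in the sum and had 911 reads in the AAOT pool and 841 reads in the control pool, a log2 ratio of 0.26. Gsta2 alone, at 33.8 CPM in the AAOT pool and 10.9 CPM in the control pool, makes up most of that sum.

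The promoters of the pair are nearly as alike as their coding parts. Shifted by 13 bases, 284 of 287 compared bases were equal, from 250 bases before to 50 bases after the RefSeq start. Each sequence is on the plus strand of GRCm38.p6, at chr9:78230419-78230718 for Gsta1 and at chr9:78256879-78257178 for Gm3776. Capitals mark the letters TTCNNNGAA, the form bound by STAT factors.
Gsta1 promoter: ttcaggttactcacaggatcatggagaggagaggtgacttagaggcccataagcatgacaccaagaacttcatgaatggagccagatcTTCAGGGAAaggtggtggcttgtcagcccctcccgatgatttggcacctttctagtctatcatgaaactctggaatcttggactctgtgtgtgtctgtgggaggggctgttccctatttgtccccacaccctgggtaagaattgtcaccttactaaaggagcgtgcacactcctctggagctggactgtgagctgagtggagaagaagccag
Gm3776 promoter: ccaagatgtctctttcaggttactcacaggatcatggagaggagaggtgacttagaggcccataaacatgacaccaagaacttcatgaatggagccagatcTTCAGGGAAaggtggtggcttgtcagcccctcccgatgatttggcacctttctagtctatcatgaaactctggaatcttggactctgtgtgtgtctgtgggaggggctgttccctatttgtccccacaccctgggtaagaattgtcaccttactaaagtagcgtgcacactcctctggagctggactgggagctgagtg
Both windows hold the same match, TTCAGGGAA. The Gm3776 window alone also holds TAGCGTG, left in small letters, a match to the AhR core TNGCGTG beginning at position 9 from the start. A match describes the letters and shows no binding.

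Akr1b7, an aldo-keto reductase, had 47 reads in the AAOT pool and 5 reads in the control pool, 10.4-fold higher (4.17 to 33.6), and 97.5% of its stretches are its own. Its relatives in the band were closer to equality, with 42 reads in the AAOT pool and 63 reads in the control pool for Akr1b8, and 20 reads in the AAOT pool and 15 reads in the control pool for Akr1b10. The sulfotransferase Sult2a6 had 111 reads in the AAOT pool and 31 reads in the control pool, 3.97-fold higher (2.65 to 6.12). Beside it on chromosome 7 lies Sult2a3, under the level band, with 30 reads in the AAOT pool and 2 reads in the control pool. Its neighbour on the other side, Sult2a8, had far more reads and was lower, with 4990 reads in the AAOT pool and 7063 reads in the control pool. The next gene, Sult2a7, was near equality with 20 reads in the AAOT pool and 18 reads in the control pool. Sult1c2, a sulfotransferase of another class, had 168 reads in the AAOT pool and 74 reads in the control pool, 2.52-fold higher (1.91 to 3.36). Each of the 3 genes Akr1b7, Sult2a6 and Sult1c2 has at least 90% unique stretches.

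Gstp2, a pi-class glutathione transferase, had 214 reads in the AAOT pool and 82 reads in the control pool, 2.90-fold higher (2.24 to 3.78). It shares 64.3% of its stretches with Gstp1, and 621 of 633 bases of their reading frames are equal. The first 60 coding bases of both genes, with the 6 differing positions in capitals, show where reads could tell them apart.
Gstp2: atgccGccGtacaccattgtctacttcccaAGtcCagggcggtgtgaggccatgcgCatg
Gstp1: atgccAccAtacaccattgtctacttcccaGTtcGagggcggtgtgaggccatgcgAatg
Reads summed over Gstp2 and Gstp1 numbered 8496 in the AAOT pool and 4972 in the control pool, 1.90-fold higher (1.83 to 1.96), so the pair together stayed just under 2-fold. The glucuronosyltransferase Ugt1a7c had 207 reads in the AAOT pool and 89 reads in the control pool, 2.58-fold higher (2.004 to 3.35). It shares its last exons with the other genes of the Ugt1a locus, and summed over the listed genes that share its stretches the ratio was 1.30 (1.28 to 1.32). Of these, Ugt1a5 had a log2 ratio of 1.67, while Ugt1a6a and Ugt1a6b had -0.03 and -0.04.

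All 6 xenobiotic cytochrome P450 genes of the band had a log2 ratio above 0, and 2 of them were past 2-fold, with a list median of 0.57. Cyp2g1, known from olfactory mucosa, had 183 reads in the AAOT pool and 82 reads in the control pool, 2.48-fold higher (1.90 to 3.25). It stands between other higher genes of its family on chromosome 7, since its neighbour Cyp2a5 had a log2 ratio of 2.20 and Cyp2a4 and Cyp2a22, both within 2 listed genes, had 1.51 and 1.40. Cyp3a16, a Cyp3a form known from fetal mouse liver, had 124 reads in the AAOT pool and 56 reads in the control pool, 2.46-fold higher (1.78 to 3.43). Its neighbour Cyp3a41b had 54 reads in the AAOT pool and 31 reads in the control pool and stayed within 2-fold.

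Lipid enzymes were among the higher genes. Pnpla3 (chromosome 15, 84167776 to 84189521), which encodes a lipid droplet hydrolase, had 182 reads (10.9 CPM) in the AAOT pool and 44 reads (2.37 CPM) in the control pool, 4.59-fold higher (3.29 to 6.53). Sqle (chromosome 15, 59315092 to 59331193), squalene epoxidase of cholesterol synthesis, had 222 reads (13.3 CPM) in the AAOT pool and 61 reads (3.28 CPM) in the control pool, 4.04-fold higher (3.03 to 5.45). Sqle was the only gene of the 31 in the cholesterol list that lay in the band, and of 28 list genes above the band 6 were past 2-fold higher and 0 lower. Pnpla3 was 1 of 9 lipid synthesis and storage genes in the band, whose median was 0.05, so most of them were near equality. Eci3, an enoyl-CoA isomerase of fatty acid oxidation, had 106 reads in the AAOT pool and 28 reads in the control pool, 4.20-fold higher (2.75 to 6.62). Of 6 PPARalpha target genes in the band 0 passed 2-fold in either direction, with a median of -0.10.

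The remaining higher genes had varied functions and are grouped here for reading only. Usp2, a deubiquitinase whose message cycles with the circadian clock, had 237 reads in the AAOT pool and 87 reads in the control pool, 3.02-fold higher (2.35 to 3.91). It was 1 of 10 immediate early and clock genes in the band, of which 7 had log2 ratios above 0 and 3 below. Their median was 0.31, over immediate early and clock genes together. The 31 genes of this list above the band centred near equality, at a median log2 ratio of -0.008. Just 1 of these passed 2-fold in each direction. Nrg4, a ligand of ErbB receptors, had 84 reads in the AAOT pool and 37 reads in the control pool, 2.52-fold higher (1.69 to 3.82). Chrna4, a subunit of nicotinic acetylcholine receptors, had 57 reads in the AAOT pool and 11 reads in the control pool, 5.75-fold higher (2.98 to 12.2). Prss8, the membrane serine protease prostasin, had 181 reads in the AAOT pool and 69 reads in the control pool. Atp2b2, a calcium pump of the plasma membrane, had 204 reads in the AAOT pool and 89 reads in the control pool, and Slc37a1, a sugar phosphate exchanger, had 155 reads in the AAOT pool and 75 reads in the control pool. Their folds were 2.91, 2.54 and 2.29, and the matrix gene Col15a1, with 232 reads in the AAOT pool and 102 reads in the control pool, was 2.52-fold higher (1.99 to 3.22). Less studied genes of this group were Lrrc24 with 142 reads in the AAOT pool and 45 reads in the control pool, Mroh6 with 56 reads in the AAOT pool and 17 reads in the control pool, and the lncRNA Gm1600 with 62 reads in the AAOT pool and 19 reads in the control pool. Synm, an intermediate filament gene, had 71 reads in the AAOT pool and 27 reads in the control pool, and Tulp2, of the tubby family, had 31 reads in the AAOT pool and 6 reads in the control pool, the smallest AAOT read number among the higher genes.

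**Figure D2:**
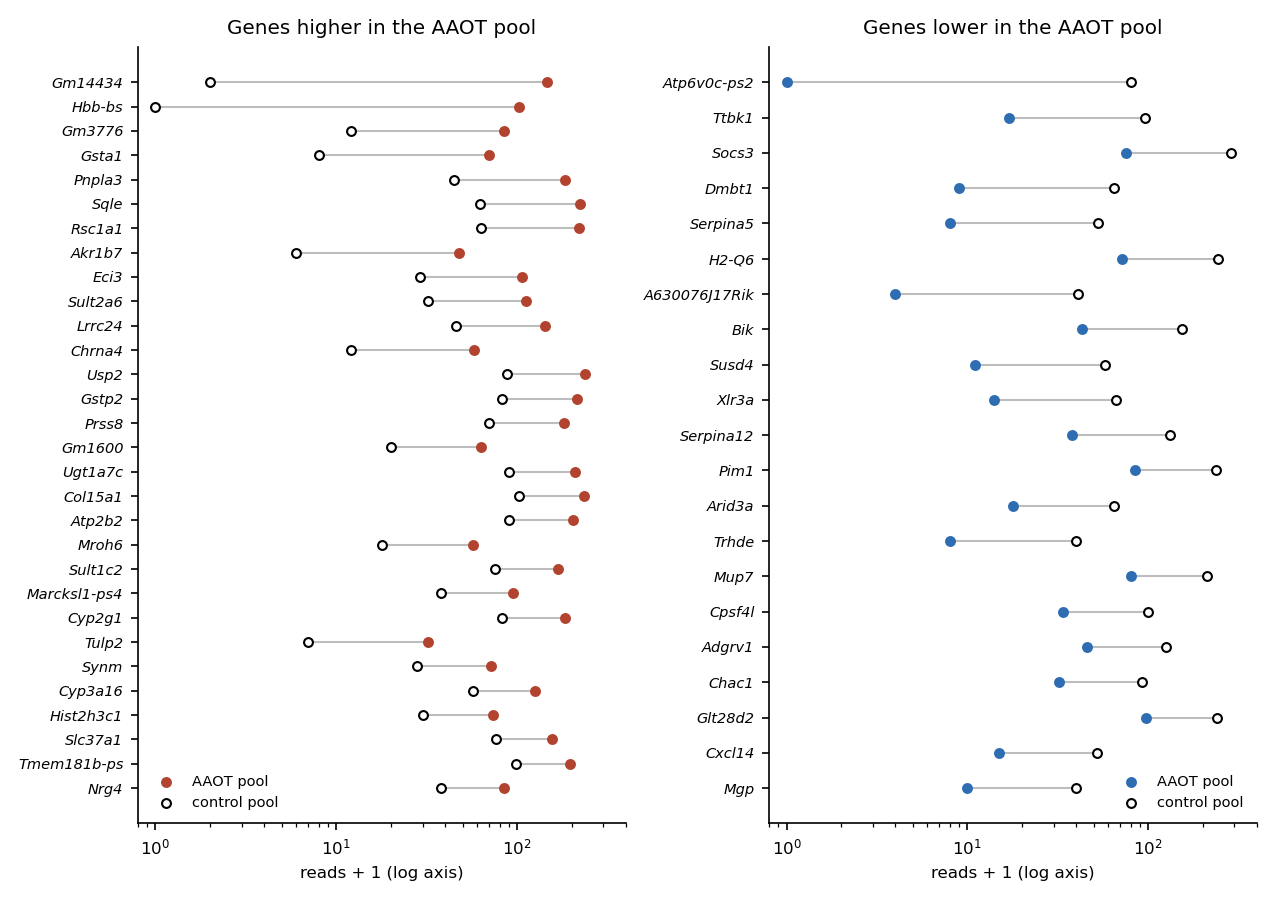
Reads plus 1 (x, log axis) of the genes described, in the AAOT pool (filled) and the control pool (open), ordered by distance from equality, with higher genes on the left and lower genes on the right. Gm14434 and Hbb-bs have 1 and 0 reads in the control pool, Atp6v0c-ps2 has 0 reads in the AAOT pool, and the genes at the foot of each panel lie just inside 2-fold.

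Genes of cytokine response were among those lower in the AAOT pool. Socs3, the feedback inhibitor of cytokine receptor signalling through JAK and STAT, had 74 reads (4.42 CPM) in the AAOT pool and 285 reads (15.3 CPM) in the control pool, 3.47-fold lower (2.68 to 4.55). Pim1, a kinase whose gene cytokines induce through STAT factors, had 84 reads (5.02 CPM) in the AAOT pool and 237 reads (12.8 CPM) in the control pool, 2.54-fold lower (1.97 to 3.30). Of 11 genes in the band from a list of acute phase, secreted and related genes, 3 were at least 2-fold lower, Socs3 and Serpina12 among them, and 0 higher. Their log2 ratios were above 0 for 5 and below 0 for 6, with a median of -0.24. The acute phase proteins Saa3 and Orm3 stayed within 2-fold, at -0.24 and 0.46. Of 38 list genes above the band 3 were past 2-fold higher and 5 lower. The cytokine response genes Osmr and Cebpd stayed near equality, with log2 ratios of 0.12 and 0.16.

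A start of Socs3 is shown because it holds a match to TTCNNNGAA in capitals, beginning at position -154 from that start, on the minus strand of GRCm38.p6 at chr11:117969317-117969616. The RefSeq gene spans 117966079 to 117970336, so the window lies inside it, downstream of its outermost 5′ end.
Socs3 promoter: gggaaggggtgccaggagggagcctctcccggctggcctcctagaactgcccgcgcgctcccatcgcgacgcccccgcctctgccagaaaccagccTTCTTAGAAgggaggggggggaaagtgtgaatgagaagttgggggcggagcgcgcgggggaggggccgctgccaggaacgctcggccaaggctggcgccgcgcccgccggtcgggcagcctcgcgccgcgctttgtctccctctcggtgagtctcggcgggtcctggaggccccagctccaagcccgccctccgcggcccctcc
This form was found, on either strand, in 7 of the 39 genes of the group with a RefSeq promoter (3 higher and 4 lower), or 8 of 46 promoter windows (17.4%), against 8.30% of 32851 windows of all genes. The 8 count 1 site of Tulp2 in 2 windows shifted by 1 base, and the near-identical windows of Gsta1 and Gm3776 apart. The genes were Socs3, Cxcl14, Cpsf4l and Ttbk1 among the lower and Gsta1, Gm3776 and Tulp2 among the higher. Pim1 had none in its window and held the E-box CACGTG instead, a form found in 6.52% of the windows of the group and 7.15% of all. The antioxidant response element form TGACNNNGC occurred in 8.70% of the windows of the group, those of 4 higher and 0 lower genes, and 12.4% of all. The sterol response element form TCACNCCAC occurred in 0 of 46 windows and 1.24% of all. The AhR core TNGCGTG occurred in 13.0% of the windows of the group, those of 5 higher genes and 1 lower gene, and 5.07% of all. The nuclear receptor element DR4, searched on both strands, occurred in 0 of 46 windows and in 0.125% of all. None of these counts was tested.

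Genes of Serpina serine protease inhibitors on chromosome 12 had log2 ratios mostly below 0. Of 21 such genes listed, at any level, 6 were past 2-fold lower and 0 higher, with 17 log2 ratios below 0 and 4 above. The 6 include Serpina12 and Serpina5, which this same ratio chose. Of all genes, 0.511% were past 2-fold lower in the band and 0.425% above it. The 17 include Serpina3h, Serpina10, Serpina1b, Serpina1a and Serpina3n, nearer equality at -0.02, -0.05, -0.07, -0.12 and -0.16. The 4 above 0 were Serpina1e, Serpina3g, Serpina3i and Serpina6, at 0.17, 0.17, 0.25 and 0.46. Serpina12 (chromosome 12, 104028769 to 104044443), which encodes vaspin, had 37 reads in the AAOT pool and 131 reads in the control pool, 3.19-fold lower (2.20 to 4.73). Serpina5, the protein C inhibitor, had 7 reads in the AAOT pool and 52 reads in the control pool, 6.69-fold lower (3.03 to 17.5). All stretches of both genes are unique. Within 2 listed genes of them, Serpina11, Serpina9, Serpina4-ps1, Serpina3a and Serpina3c, had log2 ratios of -0.89, -1.36, -3.33, -0.81 and -1.08. Serpina9, with 1 read in the AAOT pool and 32 reads in the control pool, missed the group only because its mean was under 1 CPM.

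Adjacent genes past 2-fold were more frequent beside the 52 genes than elsewhere in the band, a description that was not tested. An immediate listed neighbour past 2-fold was found for 10 of 52 genes (19.2%), in the same direction for all 10, against 70 of 4208 other genes of the band (1.66%), of which 35 had the same sign. Besides the Serpina, Gsta, Sult2a and Cyp2a clusters these were Adgrv1 beside Arrdc3, Ttbk1 beside Slc22a7, Marcksl1-ps4 beside Akr1c19 and A630076J17Rik beside Prok1. The 10 are not separate cases. Gsta1 and Gm3776 count each other and share most of their stretches, and Serpina12 and Serpina5 both lie beside Serpina4-ps1. Marcksl1-ps4 shares all its stretches with Akr1c19. Where reads could be counted for either gene of a pair, a common direction says little. A630076J17Rik had 3 reads in the AAOT pool and 40 reads in the control pool, 12.0-fold lower (3.83 to 60.7). Its exons overlap those of Prok1 on the other strand, which had 1 read in the AAOT pool and 23 reads in the control pool. The libraries were directional, but whether strand was used in counting is not stated in the labels, so the reads of this pair cannot be told apart. Overlap with an exon on the opposite strand applied to 15 of the 52 genes, and it was not counted for the rest of the band. For 5 higher genes the overlapping gene was listed and lay near equality. Lrrc14, over Lrrc24, had 162 reads in the AAOT pool and 180 reads in the control pool, and Kat8, over Prss8, had 232 reads in the AAOT pool and 246 reads in the control pool. The log2 ratios were 0.25 for Dhdh and -0.18 for Ppp1r15a, both over Tulp2, 0.35 for Ttc23 over Synm and 0.11 for Fbxo22 over Nrg4.

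Stress and cell death genes contributed Bik and Chac1. Bik, a pro-apoptotic member of the Bcl2 family, had 42 reads in the AAOT pool and 153 reads in the control pool, 3.28-fold lower (2.32 to 4.74). Chac1, which degrades glutathione and is induced by ATF4, had 31 reads in the AAOT pool and 91 reads in the control pool, 2.65-fold lower (1.74 to 4.12). Of 17 genes of the p53, stress and apoptosis list in the band 2 were past 2-fold lower and 0 higher. The list median was 0.03, and Gadd45b, at 104 reads in the AAOT pool and 49 reads in the control pool, lay just outside 2-fold at a log2 ratio of 0.99. Atf3, at 11 reads in the AAOT pool and 30 reads in the control pool, had -0.66, and Ddit3, at 55 reads in the AAOT pool and 45 reads in the control pool, had 0.32. The Chac1 promoter is shown for its match to the C/EBP-ATF composite form TGATGNAA, which stands here as its reverse complement in capitals, beginning at position -193 from the start, on the plus strand of GRCm38.p6 at chr2:119350992-119351291.
Chac1 promoter: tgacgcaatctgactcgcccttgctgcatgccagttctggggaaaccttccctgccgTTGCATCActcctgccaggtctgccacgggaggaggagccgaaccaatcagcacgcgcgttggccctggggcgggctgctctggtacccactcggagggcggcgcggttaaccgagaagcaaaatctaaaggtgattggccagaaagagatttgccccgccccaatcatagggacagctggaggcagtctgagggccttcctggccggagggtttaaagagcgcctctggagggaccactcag
This form was found in 4.35% of the windows of the group, those of Chac1 and Ttbk1, and in 3.97% of all windows, nearly the same share.

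The remaining lower genes likewise had varied functions. Dmbt1, a scavenger receptor glycoprotein of mucosal surfaces, had 8 reads in the AAOT pool and 64 reads in the control pool, 7.21-fold lower (3.45 to 17.4). Susd4, a complement regulator, had 10 reads in the AAOT pool and 57 reads in the control pool, 5.14-fold lower (2.60 to 11.3). Trhde, the ectoenzyme that degrades thyrotropin-releasing hormone, had 7 reads in the AAOT pool and 39 reads in the control pool, 5.02-fold lower (2.22 to 13.3). The chemokine Cxcl14 had 14 reads in the AAOT pool and 51 reads in the control pool, and the matrix protein gene Mgp 9 reads in the AAOT pool and 39 reads in the control pool. Adgrv1, a large adhesion receptor, had 45 reads in the AAOT pool and 125 reads in the control pool. Their folds were 3.28, 3.91 and 2.50, and Cxcl14 and Mgp, with few reads, both lay beyond 3-fold. Ttbk1, a kinase of tau and tubulin, had 16 reads in the AAOT pool and 95 reads in the control pool, 5.35-fold lower (3.13 to 9.74). Arid3a, a DNA-binding protein, had 17 reads in the AAOT pool and 64 reads in the control pool, and Cpsf4l, a relative of a cleavage and polyadenylation factor, had 33 reads in the AAOT pool and 99 reads in the control pool. The glycosyltransferase-related gene Glt28d2 had 96 reads in the AAOT pool and 238 reads in the control pool.

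**Figure D3:**
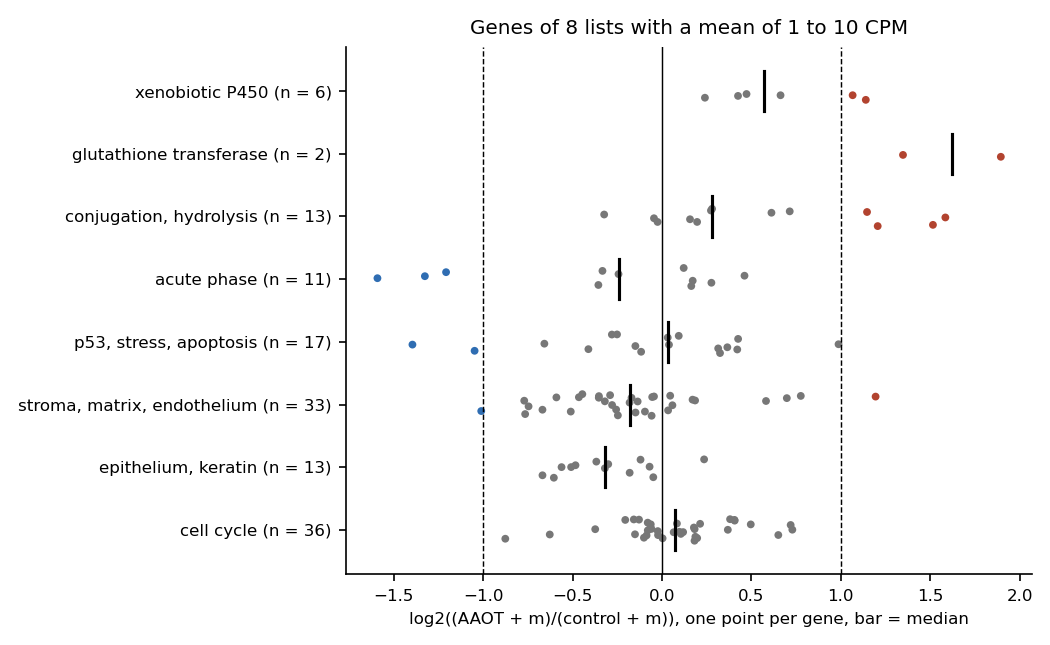
Log2 ratio, AAOT over control with m added (x), for each gene of 8 lists with a mean of 1 to 10 CPM, with 1 point per gene and the list median as a bar. The glutathione transferase and xenobiotic P450 genes all lie to the right of 0. Of 11 genes of the acute phase list 3 lie left of the lower 2-fold line, and the 36 cell cycle genes all stay inside both lines.

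Most other lists held few or none of these genes. At the share of 1.21% for the whole band, no member would be usual for lists of this size. A list of sex-biased and growth hormone genes had 2 higher (Gsta1 and Cyp3a16) and 1 lower (Susd4) of 9 in the band. Above the band, 7 of its 45 genes were past 2-fold higher and 0 lower. NRF2 targets had 1 higher (again Gsta1) and 0 lower of 5, and above the band 5 higher and 1 lower of 30. Neither list was tested. No member came from 8 of the 21 lists, among them transporters (33 in the band), interferon-stimulated and innate genes (27), leukocyte genes (14) and cell cycle genes (36), where 0 passed 2-fold either way, so nothing particular to these lists can be read from it. Matrix, stromal and endothelial genes had 1 higher (Col15a1) and 1 lower (Mgp) of 33, with 24 of 33 below 0 and a median of -0.18. Epithelial and keratin genes had 0 of 13 past 2-fold but 12 of 13 below 0, with a median of -0.32. Above the band both lists were near equality. The median was -0.05 over 33 matrix, stromal and endothelial genes and 0.01 over 12 epithelial and keratin genes. Of the latter 1 was past 2-fold higher and 0 lower. In bulk RNA, fewer cells of a type and less RNA per cell cannot be told apart. Hepatocyte markers were all listed and at 770.5 CPM or more in the AAOT pool, with a summed level of 84937 CPM in the AAOT pool and 95801 CPM in the control pool. Kupffer cell and macrophage markers summed to 324 CPM in the AAOT pool and 302 CPM in the control pool. Sinusoidal endothelial markers summed to 335 CPM in the AAOT pool and 340 CPM in the control pool. All 6 stellate cell markers had log2 ratios below 0 (-0.77 to -0.07), with sums of 414 CPM in the AAOT pool and 473 CPM in the control pool. Of 6 cholangiocyte markers all were listed, at 35.7 CPM in the AAOT pool and 45.1 CPM in the control pool in sum, and 3 mesothelial markers summed to 2.15 CPM in the AAOT pool and 4.04 CPM in the control pool. Their part in the ratios of Dmbt1, Mgp and Cxcl14 was not tested. Of 9 lymphocyte markers 2 were listed and of 7 neutrophil markers 5, summing to 0.956 CPM and 1.14 CPM in the AAOT pool and to 0.754 CPM each in the control pool.

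Sequence shared with other genes was common among the 52 genes. Fewer than 90% unique 50-base stretches were found for 16 of them (30.8%), 11 higher and 5 lower, against 459 of 4262 genes of the band with a transcript to search (10.8%). The measure counts any shared stretch, not only near-identical copies. It includes exons shared at the same locus, as for Rsc1a1, Ugt1a7c and Marcksl1-ps4, and Cyp3a16 at 89.3% unique. Pseudogenes were 3 of 52 (5.77%) and 1.16% of the band. For 14 of the 16, at least 1 other listed gene held 10% or more of their stretches, and the reads of the gene and those others were summed. In 5 cases the sum was past 2-fold in the same direction and in 9 it was not, which describes the gene family more than the gene where partners hold most reads. The gene made up 0.0705% of the summed reads in the AAOT pool and 0.0788% in the control pool for Mup7. The share was 0.562% in the AAOT pool and 0.283% in the control pool for Ugt1a7c, 2.52% in the AAOT pool and 1.65% in the control pool for Gstp2, and 4.66% in the AAOT pool and 1.07% in the control pool for Rsc1a1. The 5 were Gsta1 and Gm3776, which share 1 sum, Marcksl1-ps4, Mup7 and Xlr3a.

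The farthest ratios on both sides belonged to such genes. Gm14434 (chromosome 2, 176470369 to 176486853) had 145 reads in the AAOT pool and 1 read in the control pool, a ratio of 161 (28.4 to 6399). None of its stretches is unique, and summed with 8 listed gene models that share them the reads numbered 1979 in the AAOT pool and 1122 in the control pool, 1.96-fold higher (1.82 to 2.11). Hbb-bs, a beta-globin gene of red cells (chromosome 7, 103826523 to 103827928), had 102 reads in the AAOT pool and 0 reads in the control pool, at least 37.7-fold higher against a floor of 3 reads per library, while its 95% counting interval begins at 30.1-fold. Its reading frame equals that of Hbb-bt at 443 of 444 bases, and bases 361 to 420 hold the differing position, in capitals.
Hbb-bs: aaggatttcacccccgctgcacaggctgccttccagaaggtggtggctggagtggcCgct
Hbb-bt: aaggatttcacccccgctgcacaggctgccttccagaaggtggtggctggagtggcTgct
Hbb-bt had 225 reads in the AAOT pool and 218 reads in the control pool, and Hbb-b2 was listed with these same numbers. Summed with Hbb-bt, the partner found by shared stretches, the reads of Hbb-bs came to 327 in the AAOT pool and 218 in the control pool, 1.66-fold higher (1.40 to 1.98). Hbb-b1, which was not in the transcript set searched so that its shared stretches are not known, had 2324 reads in the AAOT pool and 2522 reads in the control pool. With Hbb-b1 the reads of Hbb-bs came to 2426 in the AAOT pool and 2522 in the control pool, a ratio of 1.07 (1.01 to 1.13). The other red cell genes Hba-a1, Hba-a2, Alas2 and Slc4a1 had log2 ratios of -0.04, 0.28, -0.06 and 0.01, and Hbb-bs was the only one of the 6 listed erythroid markers past 2-fold.

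Atp6v0c-ps2, a pseudogene of a proton pump subunit, had 0 reads in the AAOT pool and 79 reads in the control pool, at least 23.7-fold lower against the same floor, while its counting interval begins at 18.9-fold. It shares 88.0% of its stretches with Atp6v0c, which had 2472 reads in the AAOT pool and 2722 reads in the control pool, and their sum had a ratio of 0.979 (0.927 to 1.03). Rsc1a1, a regulator of solute carriers whose gene lies inside Ddi2 (chromosome 4, 141683563 to 141685716), had 219 reads in the AAOT pool and 62 reads in the control pool, 3.92-fold higher (2.94 to 5.28). All its stretches occur in Ddi2 too, and the sum, 4701 reads in the AAOT pool and 5814 reads in the control pool, had a ratio of 0.897 (0.863 to 0.933), on the other side of equality. H2-Q6, a class Ib MHC gene, had 71 reads in the AAOT pool and 242 reads in the control pool, 3.07-fold lower (2.35 to 4.06). Most of its stretches (68.0%) are unique, with 13.9% shared with H2-Q7 and 12.3% with H2-Q4. Summed with these, the ratio was 1.02 (0.936 to 1.11). H2-Q6 made up only 6.77% of the summed reads in the AAOT pool and 21.2% in the control pool, so that ratio mostly describes its partners. The histone gene Hist2h3c1 had 73 reads in the AAOT pool and 29 reads in the control pool, while its copy Hist2h3c2 had 0 reads in the AAOT pool and 25 reads in the control pool. Summed with Hist2h3c2 and Hist2h3b the histone ratio was 1.21 (0.949 to 1.55).

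Among the remaining genes with shared stretches, 3 kept a sum past 2-fold. All stretches of the pseudogene Marcksl1-ps4 occur in the aldo-keto reductase gene Akr1c19 too, whose exons overlap its own on the same strand. Marcksl1-ps4 had 94 reads in the AAOT pool and 37 reads in the control pool, while Akr1c19 had 912 reads in the AAOT pool and 417 reads in the control pool, and the sum was 2.46-fold higher (2.20 to 2.75). Mup7, a major urinary protein gene, had 79 reads in the AAOT pool and 210 reads in the control pool, and with 11 listed Mup genes the sum was 2.14-fold lower (2.13 to 2.16). Mup1, Mup9 and Mup10, with log2 ratios of -1.65, -1.03 and -0.97, held most of its reads. Mup19 went the other way, with 631 reads in the AAOT pool and 102 reads in the control pool, and Mup14 and Mup17 were at -0.28 and -0.32. Xlr3a, an X-linked gene of the Xlr family, had 13 reads in the AAOT pool and 65 reads in the control pool, and with Xlr3b the sum was 4.25-fold lower (2.36 to 8.19). Tmem181b-ps had 195 reads in the AAOT pool and 98 reads in the control pool, and with Tmem181a and Tmem181c-ps the ratio was 1.68 (1.42 to 2.003).

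**Figure D4:**
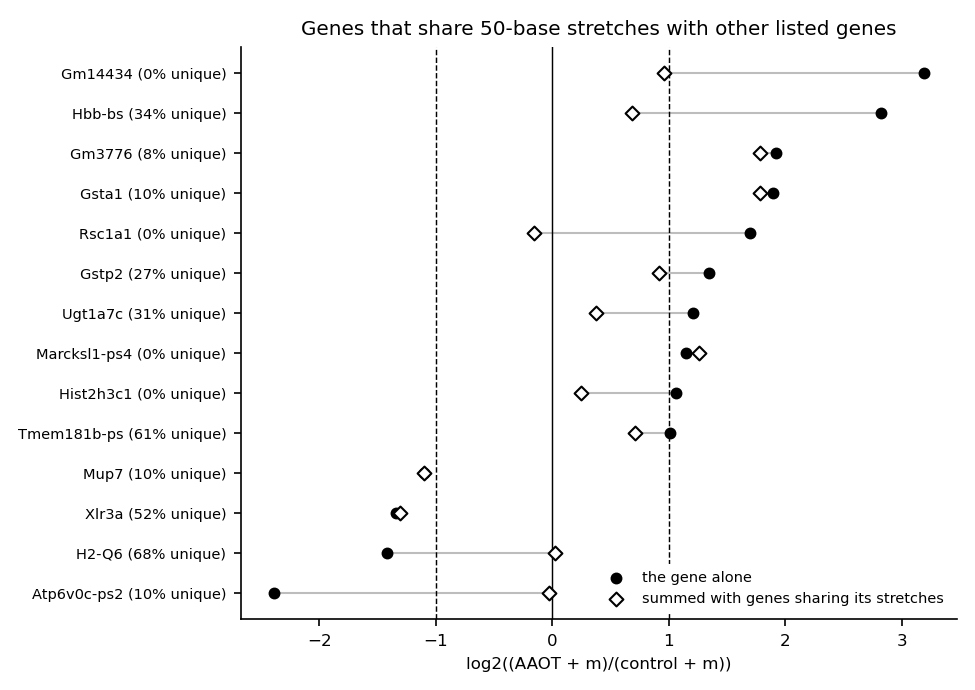
Log2 ratio, AAOT over control with m added (x), of 14 genes alone (black) and after their reads were summed with listed genes that hold at least 10% of their 50-base stretches (white), with the percentage of unique stretches in the row label. Gsta1, Gm3776, Marcksl1-ps4, Mup7 and Xlr3a keep a sum beyond the dashed 2-fold lines, and the sums of Rsc1a1, H2-Q6 and Atp6v0c-ps2 lie near 0.

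At the limit itself genes differed little on either side. Just inside 2-fold were Nrg4 at 1.01, Tmem181b-ps at 1.01 and Slc37a1 at 1.03 (log2) among the higher genes, and just outside were BC048644 at 0.996, Gadd45b at 0.99 and Fam47e at 0.98. On the lower side Mgp at -1.01, Cxcl14 at -1.03 and Glt28d2 at -1.04 were inside, and Tmem254c at -0.9996, Kcnt2 at -0.999 and Dnaic1 at -0.99 were outside. Under the level band, 4 of 3461 genes were higher and 5 lower by the same ratio.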

How the data were processed

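RNA was purified with a kit, depleted of ribosomal RNA and made into directional libraries from 200 ng, per the labels' protocols. The deposited table holds CPM for 1 library per group, matched by the code in the sample titles. Trimmomatic 0.38, Bowtie2, RSEM and edgeR, with mm10 as build, are named without roles, per the submitters' processing notes. No source used here names the annotation. In each column all values (100%, relative tolerance 1e-06) were whole multiples of a fixed step, which was taken as 1 read. The authors' columns sum to 987690 CPM (AAOT) and 1012463 CPM (control), so the deposited CPM carry a scaling factor per library. Every listed gene had at least 2 reads in all.

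With 1 library per group no spread exists, so no p-value was computed and no count model was run. Counting intervals are exact (Clopper-Pearson on the sum of 2 read numbers, 95%) and treat reads as independent molecules. Folds are plain CPM ratios. Positions and promoters are RefSeq (GRCm38.p6), matching 51 genes by symbol and 1 by synonym. Unique stretches compare the longest GENCODE M21 transcript with transcripts of all other genes as written 5′ to 3′. The genes, 21 lists and motifs were chosen with earlier results of these data known. A rule (15 genes each way by ratio, list members, genes at the limit, at 0 reads or adjacent) named 42 of the 52 genes, and the other 10 and all genes outside the group other than those at the limit were named after their values were seen. Of the lower genes, 1 is counted but its values are not reported here. The steps were tested on simulated data. Alternatives were 3 scalings, 2 added constants, 2 level bands, 2 sizes and a counting interval, plus 2 treatments of shared stretches. Software was scipy 1.17.1, numpy 2.4.6 and pandas 2.3.3 under Python 3.11.15, and plots used matplotlib 3.10.9.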

Additional observations from a re-analysis of the deposited data

How the results depend on the processing

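The 30 higher and 22 lower genes numbered 31 to 33 and 21 to 22 under 3 other scalings, which moved all log2 ratios by 0.0155 to 0.0357. They numbered 27 and 15 with a band from 2 m and 34 and 27 with a band from 0.5 m. Requiring the counting interval to lie off equality removed no gene, which the choice of genes by the same reads made near certain. The added constant set the numbers by construction, at 83 higher and 56 lower with 0.1 m and 5 higher and 1 lower with 5 m, as did the size, at 159 and 103 with 1.5-fold and 8 and 4 with 3-fold. In alternatives chosen after seeing the data, 19 higher and 17 lower genes remained among those with at least 90% unique stretches. There were 23 higher and 20 lower when reads were summed over genes that share stretches. These numbers count Gsta1 and Gm3776 apart, although they share 1 sum. They also keep genes whose sum lies above the level band. In the AAOT pool these sums were 43.7 CPM for Gsta1 and Gm3776, 60.1 CPM for Marcksl1-ps4 and 6696 CPM for Mup7. In the control pool they were 12.0, 24.4 and 14354 CPM. No paired analysis was possible because each group is 1 library. Depth limits the genes near 1 CPM, where 1 read is worth 0.0598 CPM in the AAOT pool and 0.0539 CPM in the control pool.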

Other observations

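Genes under the level band included relatives of the 52 genes. Of 9 genes under a mean of 1 CPM that passed the same ratio, Sult2a3 had 30 reads in the AAOT pool and 2 reads in the control pool, and Akr1b3, an aldose reductase gene, had 24 reads in the AAOT pool and 0 reads in the control pool. Serpina9 and Prok1 had 1 read each in the AAOT pool, and 32 and 23 reads in the control pool. D630024D03Rik had 28 reads in the AAOT pool and 5 reads in the control pool. Synj2bp-cox16 had 20 reads in the AAOT pool and 0 reads in the control pool, while Gm20604, Gm21975 and Hist2h3c2 had 0 reads in the AAOT pool and 35, 24 and 25 reads in the control pool. Of these 9 genes, 5 were at 0 reads in 1 of the pools.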
